A study of Homo sapiens with 6 samples.

Results

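The golgins are long coiled-coil proteins of the Golgi apparatus, and the Golgi stacking proteins GORASP1 and GORASP2 hold its flat membrane cisternae together. The 10 genes described here are GOLGA1, GOLGA2, GOLGA3, GOLGA4, GOLGA5, GOLGB1, GCC1, GCC2, GORASP1 and GORASP2, taken by gene name from a table of 60623 genes. All 10 passed the filter on low values (a mean of at least 1 FPKM over the 6 libraries), which left 10865 genes. GCC2 passed it only through the control libraries, where its level was higher. FPKM are fragments scaled to gene length and to a scaling total for each library, which here was not its plain read sum. The family was picked because GOLGA2 was among the largest rises, at rank 12 of the 10865 genes by difference. The values of GOLGA2 in the comparison are therefore a description, given with no test.

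RNA came from LX2, an established human line of hepatic stellate cells, which make collagen in the liver. All cells grew with 2% fetal bovine serum and were transfected for 36 h. The 3 libraries called siNC are labelled wild type and received a control siRNA. The 3 libraries called siSHMT2 are labelled as SHMT2 knockdown and received an siRNA against that gene. SHMT2 is the mitochondrial serine hydroxymethyltransferase of folate metabolism. The labels do not say whether the 3 libraries of a group came from separate cultures, so the p-values measure the spread between these libraries, and that spread may be technical.

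Golgins reach out from Golgi membranes and catch passing transport vesicles, each at its own level of the stack. GOLGA2 (also called GM130) sits on the cis face, where it is anchored by GORASP1 and binds the vesicle tether USO1 to receive carriers from the endoplasmic reticulum. GOLGB1 and GOLGA5 span the membrane at the cisternal rims, and GOLGA1, GOLGA4, GCC1 and GCC2 are held on the trans-Golgi network by a shared GRIP domain. In a stellate cell the Golgi carries collagens and other matrix proteins on their way out.

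The libraries held between 14722344 and 15669139 recovered reads. SHMT2 fell from 40.8, 56.3 and 45.1 FPKM in siNC to 2.25, 2.10 and 2.42 in siSHMT2, 4.77% of the siNC mean (exact permutation test, two-sided, p = 0.1, the smallest that 3 against 3 allows). Of 8 stellate markers, 5 had a mean of at least 1 FPKM, COL1A1 and vimentin (VIM) among them. The smooth muscle actin ACTA2 lay at 0.209 to 0.985 FPKM, desmin (DES) at 0 to 0.232, and LRAT was listed at 0 in all libraries. Summed over the stellate list, siNC libraries had 1011 to 1142 FPKM and siSHMT2 libraries 687 to 777, most of it from VIM. Hepatocyte markers (0 of 5 at 1 FPKM or above, sums of 0.298 to 1.36) and endothelial markers (0 of 5, sums of 0.310 to 0.626) were near 0. Of the macrophage markers 1 of 5, CD14, passed 1 FPKM, and of the cholangiocyte markers 2 of 4, KRT7 and SOX9.

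The proximal promoters are shown for the 3 members whose transcripts were higher and for GCC2, the member that lay lower without overlap. The sequences are from RefSeq (GRCh38.p14), run from 250 bases before to 50 bases after the annotated start and are written 5′ to 3′ on the gene's strand. Windows were found for 9 of the 10 members. Capitals mark 4 short motifs on either strand. They are ACGTGGC, the Golgi apparatus stress response element, CACGTG, the E-box read by TFE3 and its relatives, TGACGTCA, the cyclic AMP response element, and GGGCGG, the GC box. ACGTGGC and CACGTG can overlap, and GGGCGG can overlap itself.
GOLGA2, chr9:128275958-128276257, minus strand: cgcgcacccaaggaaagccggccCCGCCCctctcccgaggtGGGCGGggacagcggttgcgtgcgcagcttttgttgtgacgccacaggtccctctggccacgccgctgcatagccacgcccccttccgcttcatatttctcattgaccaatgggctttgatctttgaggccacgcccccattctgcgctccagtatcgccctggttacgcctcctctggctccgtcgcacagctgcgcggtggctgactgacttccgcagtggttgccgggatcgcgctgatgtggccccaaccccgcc
GOLGA3, chr12:132829032-132829331, minus strand: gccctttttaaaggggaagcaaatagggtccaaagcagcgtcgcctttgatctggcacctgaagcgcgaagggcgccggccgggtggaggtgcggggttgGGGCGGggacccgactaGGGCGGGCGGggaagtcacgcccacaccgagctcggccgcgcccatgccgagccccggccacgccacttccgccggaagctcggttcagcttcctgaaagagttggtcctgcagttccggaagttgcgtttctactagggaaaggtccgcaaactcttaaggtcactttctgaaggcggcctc
GCC1, chr7:127585547-127585846, minus strand: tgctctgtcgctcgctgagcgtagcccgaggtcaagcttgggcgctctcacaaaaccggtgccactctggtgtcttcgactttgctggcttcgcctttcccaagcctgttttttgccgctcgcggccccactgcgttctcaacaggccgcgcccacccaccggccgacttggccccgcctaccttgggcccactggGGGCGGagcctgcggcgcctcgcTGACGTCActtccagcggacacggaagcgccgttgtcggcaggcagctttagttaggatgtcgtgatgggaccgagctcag
GCC2, chr2:108448956-108449255, plus strand: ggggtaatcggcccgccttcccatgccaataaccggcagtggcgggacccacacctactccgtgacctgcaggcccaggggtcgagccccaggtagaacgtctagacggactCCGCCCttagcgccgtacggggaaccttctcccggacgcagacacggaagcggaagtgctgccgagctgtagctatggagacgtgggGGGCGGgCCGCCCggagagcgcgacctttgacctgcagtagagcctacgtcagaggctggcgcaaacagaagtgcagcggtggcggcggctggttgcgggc

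The GOLGA2 window held 2 GC boxes and no match to the other 3 motifs. GCC1 held 1 cyclic AMP response element, which occurs in 1.85% of all 35116 promoter windows, beside 1 GC box. ACGTGGC was present in windows of 4 members (GOLGA1, GOLGA3, GOLGA5 and GORASP2) and in 3.22% of all windows. For GOLGA3 it stood in another of its 3 annotated windows, not in the one printed. Members were counted by any of their windows, while the shares of all are over single windows. GOLGA3 was the only member with several windows. CACGTG was in no member window, against 7.26% of all, and the GC box was in windows of 8 members, against 45.0% of all. The GC content of the member windows ran from 55.7% (GOLGB1) to 73.7% (GORASP2), and the median of all windows was 58.7%. These matches describe letters in 300 bases and say nothing of binding. The GCC1 window lies inside the gene as the table draws it, which reaches further upstream, to 127593611. The printed GCC2 window also lies inside its gene, which starts at 108448561 in the table. Those of GOLGA1, GORASP1 and GORASP2, not printed, lie inside their genes as well.

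GOLGA2 lies on chromosome 9 (128255829 to 128275995, minus strand, in the table, whose coordinates match GRCh38). Its level was 2.32, 1.82 and 2.80 FPKM in siNC, from 282, 184 and 307 reads. In siSHMT2 it was 7.58, 8.59 and 7.61 FPKM, from 846, 992 and 838 reads. Every siSHMT2 library stood above every siNC library. The group means were 2.31 ± 0.489 and 7.93 ± 0.576 FPKM (SD, n = 3), with a ratio of 3.43 and a difference of 1.44 on the log2(FPKM + 1) scale (SE 0.127). With 1 library left out at a time the difference was between 1.33 and 1.54. The added 1 holds this value down, since GOLGA2 is a low transcript, and the difference was 1.75 with a pseudocount of 0.1. GOLGA2 went from rank 9 among the 10 members in siNC to rank 6 in siSHMT2, and from 3.24% to 9.02% of their summed FPKM. In siNC its range did not overlap that of the rarer GCC2 and overlapped that of GOLGA4. In siSHMT2 its range overlapped those of GOLGB1 and GCC1.

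Reads of overlapping genes and of near-identical copies can bear on GOLGA2. The sources used here do not say whether counting used strand. Without it, reads on exon bases shared by genes of opposite strands cannot be told apart. SWI5, a recombination factor on the opposite strand, overlaps the GOLGA2 locus, with 0 shared exon bases in GENCODE release 29. It was at 14.5 ± 3.91 FPKM in siNC and 12.8 ± 2.58 in siSHMT2 (SD, n = 3; limma adjusted p = 0.663), with overlapping groups. DNM1, the dynamin gene within 5 kb, was at 4.88 ± 0.474 and 3.87 ± 0.312 FPKM (limma adjusted p = 0.124). The 11 GOLGA2 pseudogenes in the table held 55 to 78 reads together in each siNC library and 83 to 120 in each siSHMT2 library, and their highest level was 0.792 FPKM. The split of reads between GOLGA2 and these copies was not tested.

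**Figure D1:**
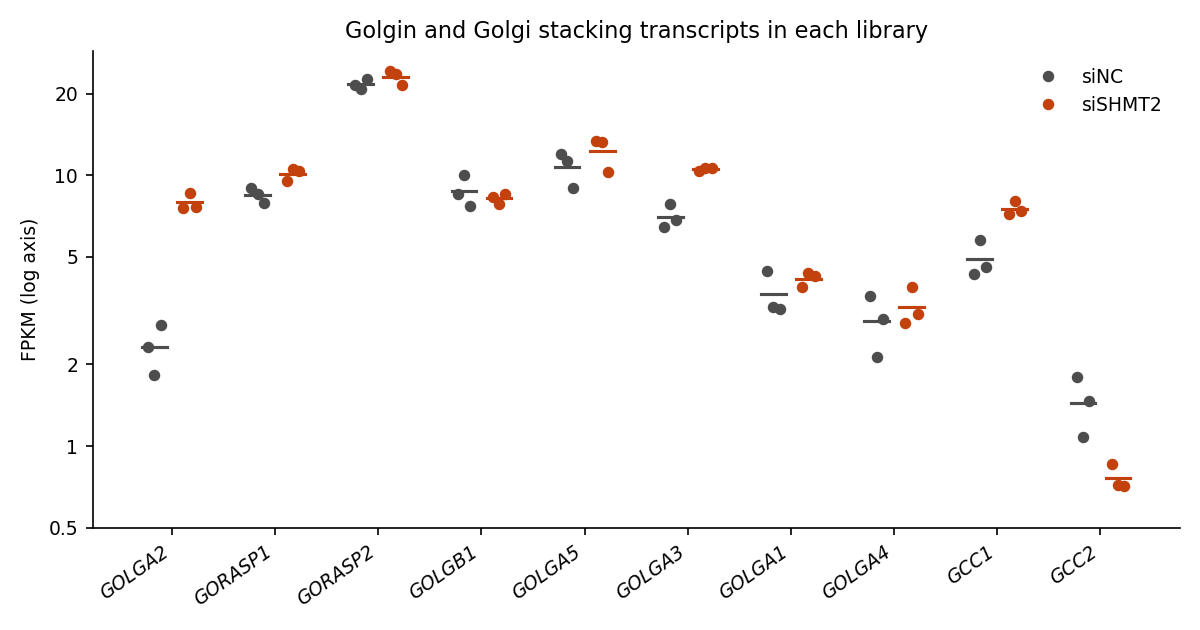
FPKM of each member on a log axis, with 1 point per library (dark grey for siNC, orange for siSHMT2) and a line at each group mean. The siSHMT2 points of GOLGA2 (7.58 to 8.59) lie well above the siNC points (1.82 to 2.80), those of GCC2 lie below, and most other pairs of groups sit close together.

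GORASP1 (also called GRASP65), on chromosome 3 (39096659 to 39108363), recruits GOLGA2 to cis cisternae. It was at 8.93, 8.52 and 7.90 FPKM in siNC and 9.51, 10.6 and 10.3 in siSHMT2. The groups did not overlap, but the difference of 0.24 on the log2 scale did not pass the test (95% interval 0.018 to 0.455, limma adjusted p = 0.137). GORASP2 (GRASP55), which stacks the later cisternae, lies on chromosome 2 (170928464 to 170967130). It was the most abundant member in each library, at 21.5, 20.8 and 22.6 FPKM in siNC and 24.1, 23.7 and 21.6 in siSHMT2. Its groups overlapped, and the difference of 0.09 had a 95% interval of -0.137 to 0.318 (limma adjusted p = 0.583). GORASP2 was 2.57 ± 0.249 times as abundant as GORASP1 per length in siNC and 2.29 ± 0.228 times in siSHMT2 (SD, n = 3). The level of GOLGA2 relative to its anchor GORASP1 was 0.276 ± 0.0717 in siNC and 0.783 ± 0.0402 in siSHMT2, a contrast fixed largely by the choice of GOLGA2.

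GOLGB1 (giantin), on chromosome 3 (121663199 to 121749767), is among the largest golgins and tethers COPI vesicles at the rims. It was at 8.50, 10.04 and 7.71 FPKM in siNC and 8.34, 7.79 and 8.50 in siSHMT2. The siNC range enclosed the siSHMT2 range. The difference was -0.08 (95% interval -0.335 to 0.184, limma adjusted p = 0.695), and its sign turned under TPM scaling, with array weights and without siNC replicate 2. Less the median of all genes, the TPM value was -0.10. GOLGA5, a membrane-spanning golgin that also tethers COPI vesicles, lies on chromosome 14 (92794305 to 92839947). It was at 12.0, 11.3 and 9.0 FPKM in siNC and 13.3, 13.3 and 10.3 in siSHMT2, with overlapping groups. Its difference was 0.18 (95% interval -0.155 to 0.510, limma adjusted p = 0.458). Replicate 3 was the lowest library of GOLGA5 in each group.

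GOLGA3, a peripheral golgin that caspases cut during apoptosis, was higher in siSHMT2. Its gene lies on chromosome 12 (132768914 to 132829078), and its level was at 6.45, 7.80 and 6.82 FPKM in siNC and 10.3, 10.6 and 10.6 in siSHMT2, from 1139 to 1872 reads. All siSHMT2 libraries were above all siNC libraries, and the siSHMT2 coefficient of variation was 1.65%, the lowest of the 10 members. The difference was 0.53 (SE 0.0979, limma adjusted p = 0.0108). GOLGA3 went from rank 5 among the members to rank 3. The call was lost without siSHMT2 replicate 1, 2 or 3 (limma adjusted p = 0.0567, 0.0515 and 0.0545), with differences of 0.54, 0.52 and 0.52. CHFR, on the same strand, shares 125 exon bases with GOLGA3 in GENCODE release 29 (1.18% of its exon bases) and stayed below the filter.

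GCC1, a GRIP-domain golgin of the trans-Golgi network, was also higher in siSHMT2. Its gene lies on chromosome 7 (127580628 to 127593611), and its level was 4.33, 5.75 and 4.58 FPKM in siNC and 7.17, 8.0 and 7.36 in siSHMT2, and the groups did not overlap. The difference was 0.54 (SE 0.115, limma adjusted p = 0.0189). It was not called without siNC replicate 3 (limma adjusted p = 0.0592), without siSHMT2 replicate 1, 2 or 3 (0.0676, 0.0816 and 0.0671) or with no filter (0.0659), where it was 0.50 to 0.57. GCC1 overlaps ARF5, a small GTPase of coat recruitment on the opposite strand, with 410 shared exon bases (8.22% of GCC1's). ARF5 was far more abundant, at 145 ± 10.1 FPKM in siNC and 166 ± 8.34 in siSHMT2 (SD, n = 3; limma adjusted p = 0.321), also without overlap of the groups. Its part in the GCC1 result was not tested.

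GCC2, a GRIP-domain golgin that helps retrieve mannose 6-phosphate receptors, had the opposite sign. It lies on chromosome 2 (108448561 to 108509415) and was the rarest member, at 1.80, 1.08 and 1.46 FPKM in siNC and 0.855, 0.717 and 0.710 in siSHMT2, from 419, 207 and 306 reads and 182, 158 and 149 reads. The groups did not overlap, and siSHMT2 stood on average at 52.5% of siNC. The difference of -0.47 did not pass the test (95% interval -0.796 to -0.135, limma adjusted p = 0.0648). GCC2 was called lower without siNC replicate 2 (-0.58, limma adjusted p = 0.0249), with array weights (-0.44, 0.0081) and by limma voom on recovered reads (-0.92, 0.0144). Its siSHMT2 libraries were all below 1 FPKM, so GCC2 passed the filter only through siNC and these calls support nothing. The ratio of GCC1 to GCC2 was 2.40, 5.35 and 3.13 in siNC and 8.39, 11.2 and 10.4 in siSHMT2. GCC2-AS1, on the opposite strand, shares 62 exon bases with GCC2 (0.467% of GCC2's). It held 6, 5 and 1 reads in siNC and 7, 10 and 14 in siSHMT2, and its part was not tested.

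GOLGA1 and GOLGA4, which the GTPase ARL1 brings to the trans-Golgi network, differed by less than the spread of the libraries. GOLGA1, on chromosome 9 (124878275 to 124948492), was at 4.43, 3.27 and 3.21 FPKM in siNC and 3.86, 4.35 and 4.23 in siSHMT2. Its groups overlapped through siNC replicate 1, and the difference was 0.16 (95% interval -0.126 to 0.447, limma adjusted p = 0.434). GOLGA4, on chromosome 3 (37243177 to 37366751), was at 3.57, 2.13 and 2.95 FPKM in siNC and 2.85, 3.88 and 3.08 in siSHMT2. Its difference was 0.15 (95% interval -0.227 to 0.519, limma adjusted p = 0.590), and it was -0.0017 without siNC replicate 2. GOLGA1 shares 886 exon bases (14.7% of its own) with SCAI on the same strand, which was below the filter.

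**Figure D2:**
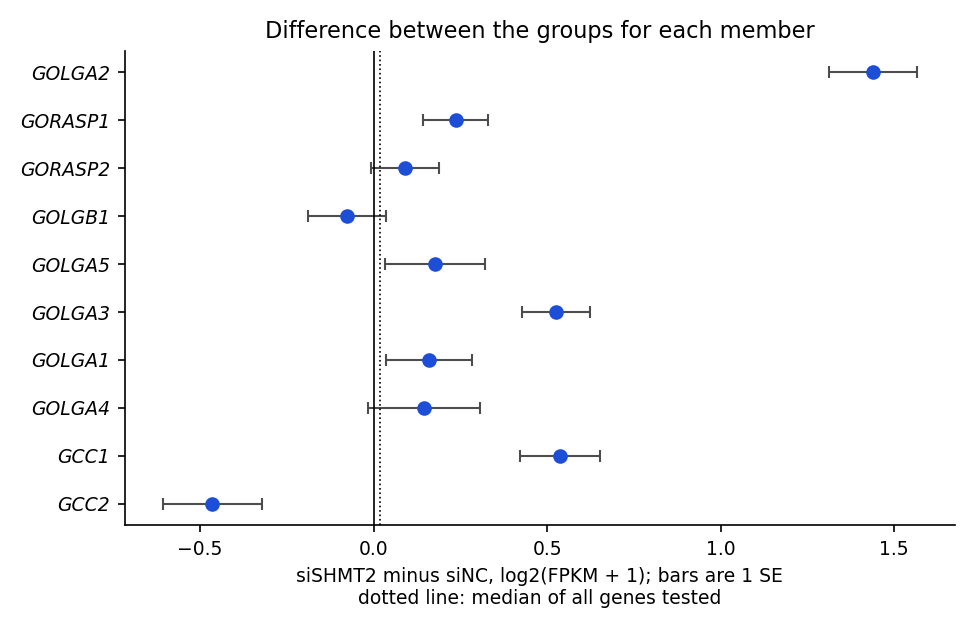
Difference between siSHMT2 and siNC on the log2(FPKM + 1) scale for each member, with bars of 1 SE; the dotted line is the median of all genes tested (0.02). GOLGA2 stands at 1.44, GOLGA3 and GCC1 at 0.53 and 0.54, and GCC2 at -0.47, while the other 6 lie between -0.08 and 0.24.

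Over the family, limma called 3 of 10 members higher (GOLGA2, which chose the list, GOLGA3 and GCC1), where 6.07% of all genes tested were called higher. It called 0 of 10 lower, where 9.85% of all genes were called lower. At an unadjusted p under 0.05, limma gave 4 members higher and 1 lower (GCC2), where 14.2% of all genes were higher and 16.0% lower. At its adjusted threshold, limma voom on recovered reads called 3 higher and 1 lower, where it called 6.54% and 11.2% of all genes. The lower member in these counts, GCC2, passed the filter only through its siNC level. Without siSHMT2 replicate 1, 2 or 3, no member besides GOLGA2 was called, and the call of GOLGA2 is no test, since its rise chose the list. Groups did not overlap for 5 of 10 members, 4 of them higher (GOLGA2, GOLGA3, GCC1 and GORASP1), against 36.4% of all genes tested. The difference was positive for 8 of 10 members and for 52.9% of all genes, and the median of the members was 0.17 (0.16 without GOLGA2) against 0.02 over all genes. The list was chosen on this contrast, so these shares describe it and support nothing. In bulk RNA, a change in the number of cells that express a gene and a change in RNA per cell cannot be told apart.

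The summed level of the 10 genes was 73.9, 72.5 and 69.0 FPKM in siNC and 88.0, 91.5 and 84.3 in siSHMT2. Without GOLGA2 the sums were 71.5, 70.7 and 66.2 against 80.4, 82.9 and 76.6, and GORASP2 alone made up 30.2% of the 10-gene sum in siNC and 26.3% in siSHMT2. The order of levels in siNC was GORASP2, GOLGA5, GOLGB1, GORASP1, GOLGA3, GCC1, GOLGA1, GOLGA4, GOLGA2 and GCC2. Ranges of neighbours in that order overlapped for GOLGA5 with GOLGB1, GOLGB1 with GORASP1, GCC1 with GOLGA1, GOLGA1 with GOLGA4 and GOLGA4 with GOLGA2. In siSHMT2 the order was GORASP2, GOLGA5, GOLGA3, GORASP1, GOLGB1, GOLGA2, GCC1, GOLGA1, GOLGA4 and GCC2. Neighbours were apart there between GORASP2 and GOLGA5, GORASP1 and GOLGB1, GCC1 and GOLGA1, and GOLGA4 and GCC2. The siNC libraries varied more than the siSHMT2 libraries for 9 of 10 members, with a median coefficient of variation of 15.1% against 6.01%. The exception was GORASP2. The siNC libraries were not alike over all genes. Replicate 2 of siNC had 18723 genes above 0, where the other libraries had 20559 to 21136. Array weights were 0.305 and 0.263 for siNC replicates 1 and 2, and 0.881 to 4.94 for the other libraries. The part of these libraries in the spread was not tested.

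**Figure D3:**
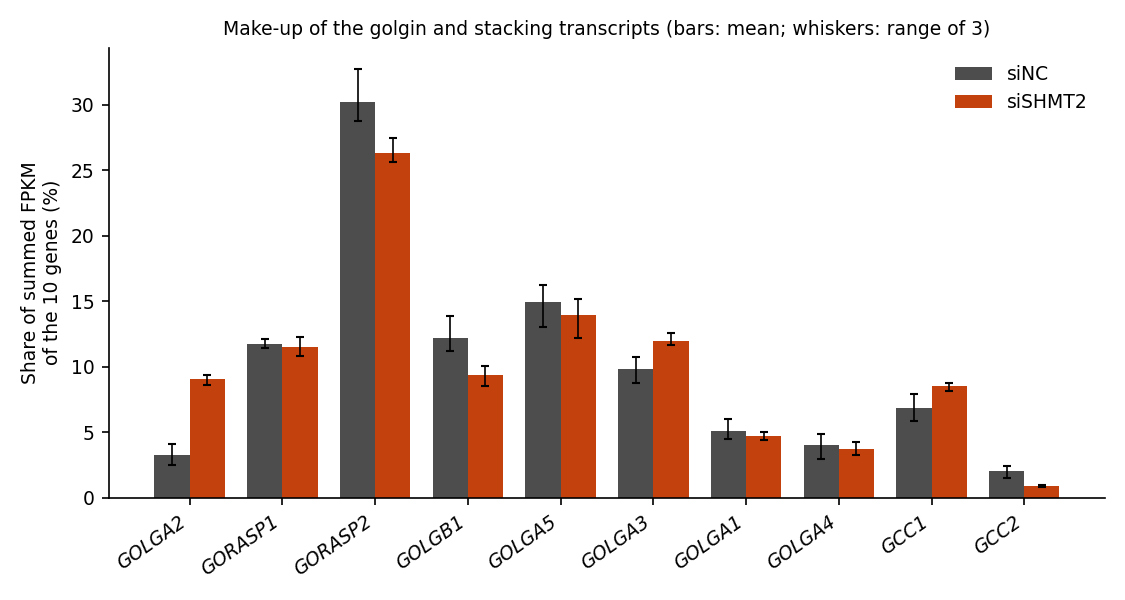
Share of each member in the summed FPKM of the 10 genes, as the mean of 3 libraries with whiskers from the lowest to the highest library. GOLGA2 takes 3.24% in siNC and 9.02% in siSHMT2, and GCC2 takes 2.02% and 0.866%.

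The tested protein-coding genes whose profile over the 6 libraries lay closest to that of GOLGA2 were HABP4, RPL26L1, C9orf78, STX12 and TUFT1. The measure was the root mean square difference between log2(FPKM + 1) profiles, each taken from its own siNC mean, and it was 0.0687, 0.0957, 0.115, 0.124 and 0.135 in that order. Among the members the closest were GOLGA3 (0.672, rank 417 of 9488 genes) and GCC1 (0.672, rank 419), and the farthest was GCC2 (1.35, rank 8491). The profiles include the difference between the groups, so the ranking repeats that contrast.

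Other genes of Golgi transport had differences in both directions, and most did not pass the test. Over 9 lists with 99 distinct tested genes, 5 genes rose (5.05%) and 10 fell (10.1%), where 6.07% and 9.85% of all genes did. Their median difference was 0.08. RAB33B, counted among the genes that fell, passed the filter only through its siNC level. Counts of a list at an unadjusted p or by voom stand against the shares of all genes under those criteria, 14.2% higher and 16.0% lower at an unadjusted p and 6.54% and 11.2% by voom. Of the 15 called genes, 8 kept the call with each library left out in turn and 7 lost it in at least 1 such fit. Testing with no filter ended the calls of RAB33B, SEC13, VTI1B, LMAN1 and MCFD2, and TPM scaling those of RAB33B, SAR1A, LMAN1, MCFD2 and TMED7.

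Among other golgins and Golgi matrix proteins 1 of 11 rose and 0 fell by limma (2 and 0 at an unadjusted p under 0.05, 1 and 0 by voom). It was BICD2, an adaptor that links RAB6 vesicles to dynein, which went from 2.64, 3.18 and 2.39 FPKM to 6.57, 6.63 and 5.53 (difference 0.96, SE 0.117, limma adjusted p = 0.00187). USO1, the tether that binds GOLGA2, was at 8.50 ± 1.01 and 10.3 ± 0.563 FPKM (SD, n = 3; limma adjusted p = 0.164). BLZF1, the golgin that binds GORASP2, was at 4.51 ± 0.175 and 3.84 ± 0.0273 FPKM (limma adjusted p = 0.190).

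Among GTPases and exchange factors that recruit golgins and coats, 2 of 15 tested genes fell and 0 rose (3 higher and 2 lower at an unadjusted p under 0.05, 0 and 2 by voom). RAB2A, a GTPase of the early secretory pathway, fell from 9.59, 6.47 and 8.50 FPKM to 1.14, 1.53 and 1.32. Its difference was -1.97 (SE 0.145, limma adjusted p = 0.000263), the largest in size among the genes of the 9 lists. RAB33B, a Golgi GTPase, fell by 0.46 (limma adjusted p = 0.0483) and was called in 1 of the 6 fits with a library left out, the fit without siNC replicate 2 (adjusted p up to 0.177 in the others). RAB33B passed the filter only through siNC (1.39 FPKM on average, against 0.739 in siSHMT2), so its call supports nothing. ARF3 was at 27.5 ± 2.46 and 35.1 ± 0.472 FPKM (SD, n = 3; limma adjusted p = 0.0637).

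Among Golgi SNAREs, the proteins that fuse vesicles with their target, 2 of 12 fell and 1 rose. At an unadjusted p under 0.05, 2 were higher and 3 lower, and by voom 1 was higher and 2 lower. STX6, the syntaxin of the trans-Golgi network, fell from 6.31, 8.02 and 6.56 FPKM to 2.20, 2.28 and 2.29 (difference -1.29, SE 0.108, limma adjusted p = 0.000421). BET1, which acts between endoplasmic reticulum and Golgi, fell by 0.89 (limma adjusted p = 0.00215). VTI1B rose by 0.43 (limma adjusted p = 0.0329) and lost the call in 5 of the 6 fits with a library left out, all but the fit without siNC replicate 3, with adjusted p up to 0.135.

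Among cargo receptors between endoplasmic reticulum and Golgi, 3 of 16 tested genes fell and 0 rose (1 higher and 3 lower at an unadjusted p under 0.05, 0 and 3 by voom). They were LMAN1 and MCFD2, which form a receptor for clotting factors, and TMED7, a p24 cargo receptor. LMAN1 fell from 16.2, 10.7 and 13.5 FPKM to 6.80, 7.81 and 6.38 (difference -0.84, limma adjusted p = 0.00974), a call lost under TPM scaling (-0.81, 0.0555) and just missed with no filter (0.05002). MCFD2 fell by 0.59 (limma adjusted p = 0.0254) and TMED7 by 0.58 (0.0154). Their calls were lost without siSHMT2 replicate 1, 2 or 3, and that of MCFD2 also without siNC replicate 2, with adjusted p up to 0.106 and 0.0769.

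The COPI coat, which carries vesicles back through the stack, had 0 of 9 subunits called by limma (3 higher and 0 lower at an unadjusted p under 0.05, 1 and 0 by voom). The difference was positive for 8 of 9, with a median of 0.31 against 0.02 over all genes. ARCN1 was at 21.1 ± 2.74 and 28.3 ± 2.14 FPKM and COPZ2 at 11.1 ± 2.64 and 16.5 ± 1.16 (SD, n = 3; limma adjusted p = 0.0591 and 0.0586). ARCN1 was called without siNC replicate 1 (0.0213) and COPZ2 without siNC replicate 3 (0.0344). COPB2 was at 16.1 ± 1.85 and 20.5 ± 1.32 FPKM (limma adjusted p = 0.0935).

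The COPII coat had 1 of 10 higher and 1 lower. At an unadjusted p under 0.05, 2 were higher and 2 lower, and by voom 1 was higher and 2 lower. SEC13, a coat and nuclear pore protein, rose from 34.0, 34.2 and 46.6 FPKM to 59.7, 59.0 and 63.2 (limma adjusted p = 0.0193), and the GTPase SAR1A fell by 0.46 (0.0147). Neither was called without siSHMT2 replicate 1, 2 or 3 (adjusted p up to 0.0832 and 0.0777). SEC24A, a cargo-binding coat subunit, was at 4.39 ± 0.819 and 2.91 ± 0.315 FPKM (SD, n = 3; limma adjusted p = 0.0542). It was called lower by voom (-0.60, limma voom adjusted p = 0.0328) and with array weights (-0.30, limma adjusted p = 0.0325).

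The COG and GARP tethering complexes had 0 of 9 tested subunits called by limma (0 in either direction at an unadjusted p under 0.05 and by voom), with differences from -0.15 to 0.19. The subunits with the smallest adjusted p were COG3 (3.18 ± 0.353 and 3.76 ± 0.355 FPKM), VPS51 (23.1 ± 1.05 and 20.7 ± 0.706) and COG8 (1.74 ± 0.239 and 2.09 ± 0.247; SD, n = 3).

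Among Golgi N-glycan enzymes 1 of 8 tested genes rose and 1 fell (1 and 1 at an unadjusted p under 0.05, 1 and 1 by voom). B4GALT1, which adds galactose, rose from 3.72, 2.87 and 2.67 FPKM to 7.01, 7.16 and 6.62 (difference 0.96, limma adjusted p = 0.00179). MAN2A1, a trimming mannosidase, fell by 0.67 (limma adjusted p = 0.00386). MGAT1, which opens the path to complex glycans, was at 24.7 ± 2.67 and 21.8 ± 1.26 FPKM (SD, n = 3; limma adjusted p = 0.359).

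Genes of the Golgi stress response had 1 of 11 higher and 1 lower (2 and 1 at an unadjusted p under 0.05, 1 and 1 by voom). SERPINH1, the collagen chaperone, rose by 0.50 (limma adjusted p = 0.0185), a call lost with any 1 siSHMT2 library left out (up to 0.105). STX3, a plasma membrane syntaxin, fell from 17.2, 17.6 and 13.6 FPKM to 6.34, 6.81 and 6.31 (difference -1.19, limma adjusted p = 0.000840). MLX, a transcription factor of the TFE3 branch, was at 8.52 ± 0.297 and 10.4 ± 0.686 FPKM (SD, n = 3; limma adjusted p = 0.105).

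**Figure D4:**
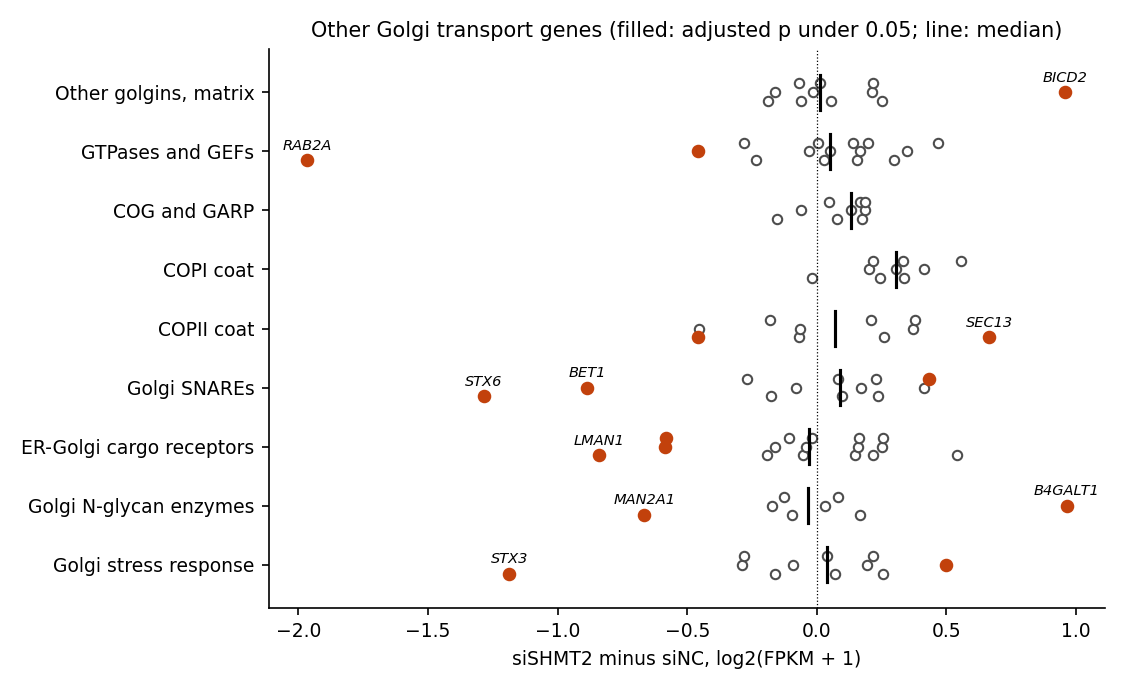
Difference between siSHMT2 and siNC on the log2(FPKM + 1) scale for each tested gene of 9 lists of Golgi transport genes; filled points passed an adjusted p of 0.05 in limma and black lines are list medians. List medians lie between -0.03 and 0.31, and RAB2A at -1.97 is farthest from 0.

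The members were also set against the median of all genes, since scaling moved that median. Under TPM scaling the median of all genes was 0.11, and relative to it GOLGA2 was at 1.63, GOLGA3 at 0.55, GCC1 at 0.58 and GCC2 at -0.72. As reported these were 1.42, 0.51, 0.52 and -0.48 relative to the median of all genes. The 4 genes kept their signs.

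**Figure D5:**
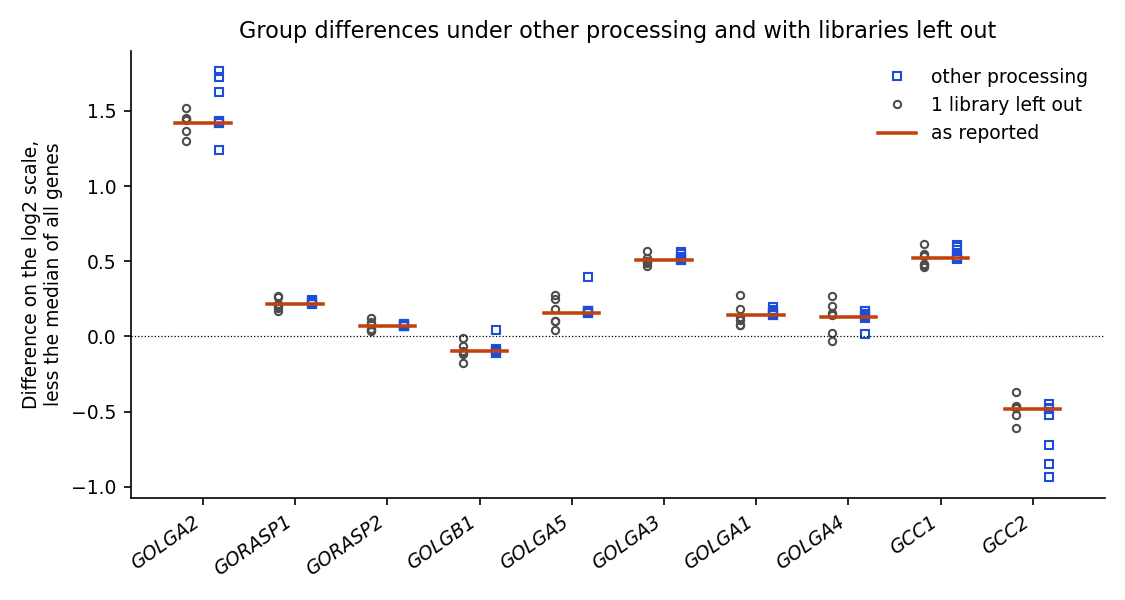
Difference between siSHMT2 and siNC for each member less the median of all genes, as reported (orange line), under other processing (blue squares) and with 1 library left out (grey circles). GOLGA2 stays between 1.24 and 1.76 and GCC2 between -0.94 and -0.37, while GOLGB1 and GOLGA4 have values on both sides of 0.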

How the data were processed

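The deposited table gives FPKM per gene, computed by the authors from 6 libraries. The submitters' processing notes name hg18, HISAT2 2.0.5 and featureCounts 1.5.0-p3, and the labels' protocols a SMARTer mRNA kit. The table's coordinates match GRCh38, not hg18: 99.9% of 58516 shared identifiers overlap their GENCODE release 29 gene. Multiplied by gene length, 100% of the values above 0 were whole numbers of reads (tolerance 0.02), and the scaling totals were 0.957 to 1.13 times the sums of these reads.

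Genes with a mean of at least 1 FPKM were tested across all genes with limma 3.58.1 (R 4.3.3) on log2(FPKM + 1), with an intensity trend and Benjamini-Hochberg adjustment at 0.05. The fit was tested on simulated data, with 200 of 10865 genes changed in each of 5 draws. There it called 11.0% of 1.5-fold changes, 54.3% of 2-fold changes and 90% of 4-fold changes, and 0.0563% of unchanged genes. Far more genes were called in the real data (659 higher and 1070 lower). The adjusted threshold then falls at another unadjusted p, so these rates do not carry over to it. A gene that was not called may still differ. Alternatives were the pseudocount, filter, TPM, trend, array weights, a replicate block, voom on recovered reads with TMM factors, and each library left out. FPKM from plain read sums was chosen after seeing the data. Members and lists were chosen with earlier results of these data known. Named were all members, up to 3 tested genes of each list with the smallest adjusted p, and 5 genes with profiles like GOLGA2. Of genes overlapping a member or within 5 kb of GOLGA2, those described were SWI5, DNM1, CHFR, ARF5, SCAI and GCC2-AS1. Others, such as WDR48 and TTC21A at GORASP1, FSCN3 at GCC1 and AC097359.2 at GOLGA4, were not described. Motifs and 3′ UTR words were matched as exact letters in Python 3.11.15.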

Additional observations from a re-analysis of the deposited data

How the results depend on the processing

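The calls depended on which libraries were kept. With 1 library left out at a time, members called higher ran from 1 to 3 and members called lower from 0 to 1, while genes called higher ran from 229 to 729 and genes called lower from 498 to 1132, against 659 and 1070. Array weights called 5 members higher and 1 lower (1827 and 1976 of all genes), and voom on recovered reads called 1 member lower. No filter gave 333 genes higher and 603 lower. A mean of at least 5 FPKM, which dropped GOLGA1, GOLGA4 and GCC2, gave 618 lower, and TPM scaling gave 620 lower. Among calls, 61.9% were lower as reported, 47.5% under TPM scaling and 49.1% with FPKM from plain read sums. With the replicate number as a block, 374 genes were higher and 696 lower, and 3 members were higher. Deviations of same-numbered libraries from their group means had correlations of -0.0183, -0.349 and 0.243. Those of differently numbered libraries ran from -0.483 to 0.496. With 3 libraries in a group, these values cannot decide whether the numbers pair the libraries. GOLGB1 (-0.15 to 0.017 with 1 library left out) turned to 0.0093 under TPM scaling, 0.054 with array weights and 0.017 without siNC replicate 2. GOLGA4 was -0.0017 without siNC replicate 2 and 0.27 without siNC replicate 1. The cause was not tested. SHMT2 kept its direction and call in each alternative. At 149 to 419 reads, GCC2 was the member with the least depth over the 6 libraries. Within siNC, GOLGA2 had fewer reads, 773 summed against 932 for GCC2.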

Other observations

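The GOLGA8 genes are primate copies related to GOLGA2 on chromosome 15, and 2 of the 21 in the table passed the filter. GOLGA8B was at 3.02 FPKM on average in siNC and 4.34 in siSHMT2, and GOLGA8A at 3.17 and 3.49. The 21 genes together held 549 to 980 reads in siNC and 771 to 1142 in siSHMT2, which overlap. The sources used here do not say how reads were divided between such near-identical copies. The 17 GOLGA6 genes held 1 to 27 reads together per library.

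The 7-base words GACTTTA and ACTTTAA, which were picked on the differences of these same libraries, were looked up in 3′ UTRs of GENCODE release 29 (GRCh38), the longest per gene. Either word was in 2 of 10 members, GCC2 and GOLGA3, and in 24.6% of 9385 tested protein-coding genes besides SHMT2. The sites are printed because they lie in members whose differences had opposite signs, with the word in capitals and 5′ to 3′ on the gene's strand.
GCC2 3′ UTR, chr2:108509196-108509225, plus strand: actttctctttGACTTTAgaccttttgaag
GOLGA3 3′ UTR, chr12:132768983-132769012, minus strand: gacaaagtgtaACTTTAAaaagcacgttga

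The word starts at base 1577 of 1768 in GCC2 and at base 4104 of 4196 in GOLGA3. GOLGA2, with a 3′ UTR of 1238 bases and 48.3% GC, held neither. In the 9 transport lists either word was in 7 of the 10 genes that fell (RAB2A, RAB33B, STX6, BET1, LMAN1, MCFD2 and TMED7), in 0 of the 5 that rose and in 29.3% of the 99 tested. The median 3′ UTR was 3064 bases with 33.3% GC in the genes that fell and 2817 bases with 47.0% GC in those that rose. Since the words were picked on these differences, these shares describe that choice, and the part of length and base content was not tested.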
